A study of Mus musculus with 10 samples.

Results

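The genes described here are 10 genes of the microglial surface and of microglia at rest, out of 24453 genes in a table of read counts, taken by name: *Cx3cr1*, *Selplg*, *Tmem119*, *Gpr34*, *Ptprc*, *Trem2*, *Fcrls*, *Aif1*, *Csf3r* and *Laptm5*. All 10 were in the table. The libraries came from sorted neurons of layer 5 of the mouse primary motor cortex (M1), and the study asked how the transcripts of 2 types of intratelencephalic projection neuron (IT-PN) differ. Male mice hemizygous for the *Fezf2-Gfp* reporter transgene, strain (Zfp312-EGFP)CO61GsatMmnc on a Swiss Webster background, received the retrograde tracer cholera toxin subunit B (CTB) with an Alexa dye in the left M1 at postnatal day 23 to 25. Cells of the right M1 were collected at postnatal day 28 to 32. Fezf2+ IT-PNs carried GFP and CTB, and Fezf2- IT-PNs carried CTB without GFP, so that each type was defined by a reporter and a tracer and not by the *Fezf2* transcript. Each of 5 animals gave 1 library of each type. The sort used size, doublet, viability, GFP and CTB gates, and no gate for microglia is described. According to the sample records the mean yield was 11280 Fezf2+ cells and 2688 Fezf2- cells, and the study's text gives a higher mean for the Fezf2- cells.

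Microglia are the resident macrophages of the brain. At rest they survey the tissue with fine processes and express a set of surface receptors, among them receptors for neuronal chemokine, nucleotides, lipids and adhesion molecules, that is much weaker in neurons and in other glia. Several of these genes are also expressed by other white blood cells, *Ptprc* (CD45) by nearly all of them and *Csf3r* chiefly by neutrophils and their precursors. None of the 10 genes is a marker of projection neurons.

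The depth of the libraries limits what can be seen of such genes. Between 107643 and 203379 reads fell on genes in the Fezf2+ libraries and between 89138 and 217738 in the Fezf2- libraries (p = 0.188 by a two-sided exact permutation test over the 5 pairs, which cannot give a p below 0.063). Levels are given in CPM (gene reads scaled to a common library total) after TMM scaling, on which 3 reads correspond to 14.6 CPM in the Fezf2- library of animal 3 and to 35.3 CPM in the Fezf2+ library of animal 4, the lowest and highest of the 10 libraries. Before TMM scaling the same floor runs from 13.8 to 33.7 CPM, and pooled ratios use this unscaled CPM. The libraries were amplified by PCR and no molecular identifiers are described, so floors and counting intervals cover counting error only. Few reads were found of *Fezf2* and, in most libraries, of the markers of excitatory cortical neurons. *Fezf2* had 1 read in all 10 libraries, in the Fezf2+ library of animal 5. Of 12 excitatory cortical neuron markers *Tbr1* was at 0 in every library, and their summed level ran from 47.1 to 590.3 CPM (median 221.1) in the Fezf2+ libraries and from 55.5 to 2727 CPM (median 86.2) in the Fezf2- libraries. *Camk2a*, *Syt1* and *Snap25* had the most reads among them, and 529 of the 588 reads of *Camk2a* came from the Fezf2- library of animal 3. Several libraries stand apart in single genes. In the Fezf2+ library of animal 1 *Sema6a* held 29.8% of the gene reads. The Fezf2- library of animal 4 held nearly all reads of *Ptprc* and *Csf3r*, that of animal 3 most reads of *Cx3cr1* and *Gpr34*, and that of animal 5 most reads of *Mertk*, *Entpd1* and *Cask*.

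All 10 genes had a lower CPM in the pooled Fezf2+ libraries than in the pooled Fezf2- libraries. Their summed level in the Fezf2+ libraries of animals 1 to 5 was 139.4, 71.9, 27.6, 105.9 and 110.3 CPM. In the Fezf2- libraries it was 1065, 1025, 2066, 22779 and 355.5 CPM. The types did not overlap, and within animals the Fezf2- library was 7.64, 14.3, 74.7, 215.1 and 3.22 times higher. Without *Csf3r* and *Ptprc* the same ratios were 10.05, 15.02, 72.1, 7.24 and 5.71. In bulk samples such as these, fewer cells of a type and less RNA per cell cannot be told apart. In reads, the 10 genes made up 0.00339 to 0.0144% of a Fezf2+ library and 0.0294 to 1.39% of a Fezf2- library.

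No gene passed the test by edgeR in the fit that kept the pairing by animal. A gene entered the test, edgeR's quasi-likelihood method with the animal as a block, if 2 or more libraries reached 10 CPM before TMM scaling, and an adjusted p (Benjamini-Hochberg over all 7409 genes tested) at or below 0.1 was taken as a call. This called 0 of the 10 genes and 0 of all genes (0%). An unadjusted p under 0.05 with a lower level in Fezf2+ was found for 3 of the 10, *Selplg*, *Tmem119* and *Laptm5*, against 2.27% of all genes tested. DESeq2 with the same block called these 3 genes, against 0.742% of all genes called lower in Fezf2+. It gave no adjusted p for 5745 of the 7409 genes, *Trem2*, *Fcrls* and *Aif1* among them, and of the 1664 genes that had one 3.31% were called lower in Fezf2+. Counts were simulated with the common dispersion of these libraries for every gene, a single size of change and no difference between animals. Larger changes, and dispersions that vary by gene, were not simulated. On the simulated counts edgeR with the block called no gene, changed ones included. A lack of calls by it therefore does not show a lack of difference. On the same counts DESeq2 with the block called unchanged genes well above its nominal rate, so its adjusted p-values, here and below, cannot be read as holding that rate. edgeR without the block called 4, the same 3 and *Ptprc*, against 2.15%. The levels of 5 genes did not overlap between the types (*Cx3cr1*, *Selplg*, *Tmem119*, *Gpr34* and *Laptm5*), against 0.945% of all genes lower in every Fezf2+ library. This count was 4 with DESeq2's size factors, where *Cx3cr1* overlapped, 4 with library size only, where *Gpr34* overlapped, and 1 (*Selplg*) after downsampling to the smallest library. All 10 passed the filter on low counts, but on the unscaled CPM of the filter 8 of them had at most 1 Fezf2+ library at 10 CPM and so passed through the Fezf2- libraries, where they are high. The counts above are therefore a description of the 10 genes and not support for a difference.

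**Figure D1:**
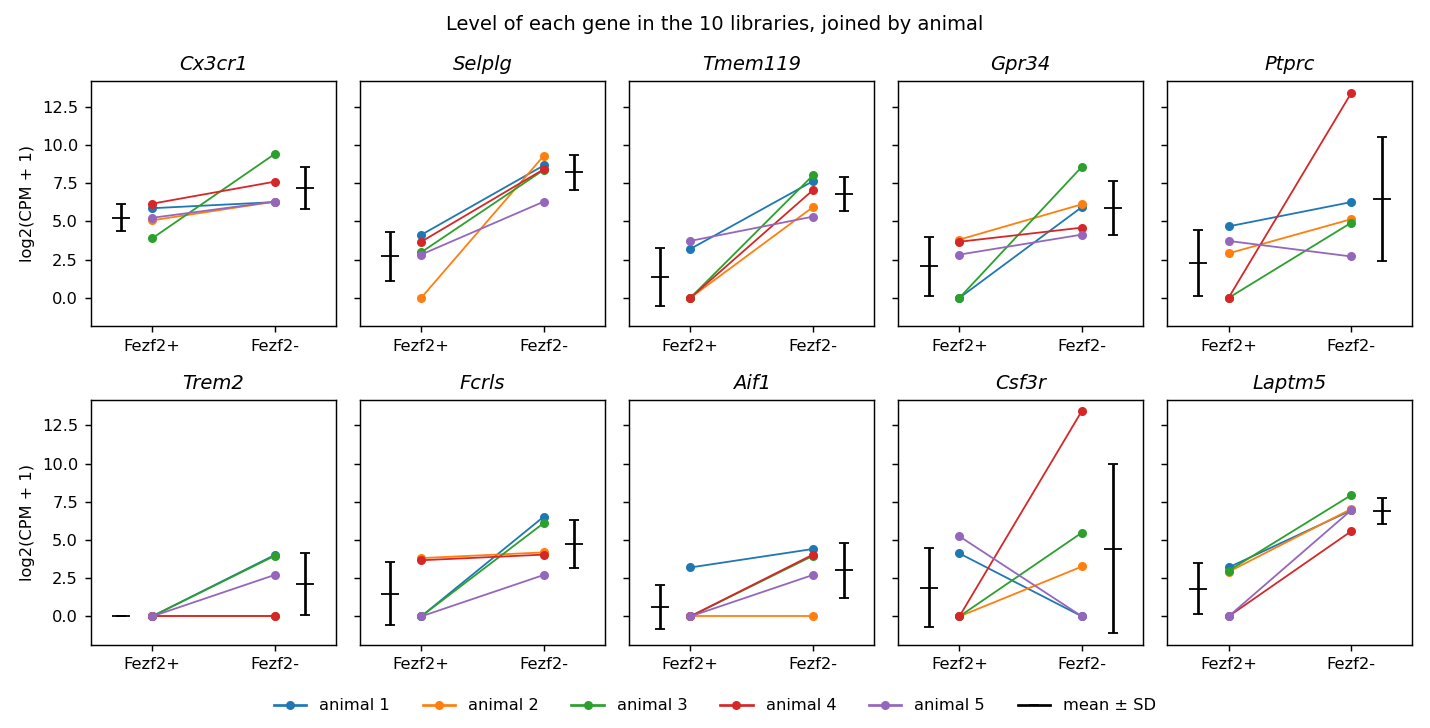
Level of each of the 10 genes as log2(CPM + 1) in the Fezf2+ and the Fezf2- library of each animal, joined by a line of the animal's colour, with the mean and SD of the 5 libraries beside them. For *Selplg* the lines all climb steeply, from a mean of 2.72 to 8.21, whereas for *Csf3r* they cross and 1 animal stands far above the rest.

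Promoters are shown for 3 of the genes, because the pooled level of all 10 genes was lower in the same type and their start regions can be compared. RefSeq windows (GRCm38.p6, 250 bases before to 50 after the start) were found for 7 of the 10 genes, all but *Selplg*, *Tmem119* and *Gpr34*, with 2 windows for *Ptprc*. The windows below are those of *Laptm5* (chr4:130913066-130913365, plus strand), whose types did not overlap, *Fcrls* (chr3:87263475-87263774, minus strand), a gene of microglia in particular, and *Cx3cr1* (chr9:120068247-120068546, minus strand), the member with a read in every library. The window of *Cx3cr1* is set on the outermost start of the gene. Those of *Laptm5* and *Fcrls* are set on starts at 130913316 and 87263524, which lie 426 and 241 bases inside the outermost start, so that all 300 bases of the former window and 291 bases of the latter fall within the span of the gene. They are written 5′ to 3′ with the letters GAGGAA, or TTCCTC on the other strand, in capitals.
Laptm5: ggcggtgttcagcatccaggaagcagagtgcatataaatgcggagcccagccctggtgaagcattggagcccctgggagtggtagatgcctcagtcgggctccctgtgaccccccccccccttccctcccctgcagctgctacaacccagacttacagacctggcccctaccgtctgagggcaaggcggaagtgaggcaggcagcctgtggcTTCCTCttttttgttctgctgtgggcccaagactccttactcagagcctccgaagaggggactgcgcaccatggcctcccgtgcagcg
Fcrls: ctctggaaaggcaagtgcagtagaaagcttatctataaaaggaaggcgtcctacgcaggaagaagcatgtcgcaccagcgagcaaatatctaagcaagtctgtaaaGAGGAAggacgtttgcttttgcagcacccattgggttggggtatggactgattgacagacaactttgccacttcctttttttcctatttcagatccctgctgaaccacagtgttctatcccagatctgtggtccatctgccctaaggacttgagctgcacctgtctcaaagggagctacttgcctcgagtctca
Cx3cr1: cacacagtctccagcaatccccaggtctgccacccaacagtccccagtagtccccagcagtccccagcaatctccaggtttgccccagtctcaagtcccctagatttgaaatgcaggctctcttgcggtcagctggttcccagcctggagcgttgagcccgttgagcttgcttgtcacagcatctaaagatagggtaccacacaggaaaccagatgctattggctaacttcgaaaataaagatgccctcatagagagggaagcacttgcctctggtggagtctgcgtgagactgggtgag
These 6 letters are the core of the site of PU.1, the transcription factor on which macrophages and microglia depend. They occur in a window of 6 of the 7 genes, all but *Cx3cr1*, and in 28.3% of all 32851 promoter windows. The longer form GAGGAAGT, which contains the core, was in no window of the 7 genes and in 3.202% of all windows. TGTGGT, the letters of a RUNX site, was in the windows of *Cx3cr1* and *Fcrls* and in 16.8% of all windows. TATAAA, the TATA box, was in those of *Ptprc*, *Fcrls* and *Laptm5* and in 13.6% of all windows. Both strands were searched, and a match is a description of letters only.

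*Cx3cr1* (chr9:120048683-120068296, minus strand) encodes the receptor for fractalkine, the membrane-bound chemokine of neurons, and is a standard marker of microglia. It had 7, 5, 2, 6 and 6 reads in the Fezf2+ libraries of animals 1 to 5, and 15, 9, 140, 25 and 14 reads in the Fezf2- libraries. It was the only one of the 10 genes with reads in every Fezf2+ library, and the types did not overlap, although in CPM the highest Fezf2+ library (70.6) lay close under the lowest Fezf2- library (76.0) and the types overlapped with DESeq2's size factors. The Fezf2- library of animal 3 alone held 61.1% of all its reads. Its pooled CPM was 6.38 times higher in Fezf2- (95% exact counting interval 4.23 to 10.01) and 2.22 times higher without animal 3 (1.37 to 3.72). The fitted log2 fold change, here and below of Fezf2+ over Fezf2-, was -1.71 ± 1.12 (SE, n = 5 animals, edgeR with the block, adjusted p = 0.998), and -1.07 without animal 3. The ligand gene *Cx3cl1* had 5 reads in Fezf2+ and 4 in Fezf2- libraries.

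*Gpr34* (chrX:13622650-13640859, plus strand) encodes a lysophosphatidylserine receptor of microglia. Its reads were 0, 2, 0, 1 and 1 in the Fezf2+ libraries and 12, 8, 79, 3 and 3 in the Fezf2- libraries. On the TMM scale every Fezf2- library lay above every Fezf2+ library, whereas they overlapped by library size only, and the Fezf2- library of animal 3 held 72.5% of the reads. The pooled ratio was 21.5 (8.14 to 80.2), 5.501 (1.91 to 21.7) without animal 3 and 37.4 (10.1 to 313.6) without animal 2. Its log2 fold change in the fit was -3.22 ± 1.55 (edgeR with the block, n = 5 animals, adjusted p = 0.998). *Gpr34* lies wholly inside *Cask* (chrX:13517080-13846783, minus strand), a gene of the synaptic scaffold, with 1 *Cask* exon within its span. The counting tool assigns a read to each gene it overlaps, and strand is not stated, so reads of both genes cannot be told apart. *Cask* had 12, 10, 7, 4 and 6 reads in the Fezf2+ libraries and 40, 16, 99, 20 and 2901 in the Fezf2- libraries. It had more reads than *Gpr34* in all 10 libraries, but counting over whole gene spans would give *Cask* every read of *Gpr34* as well. The highest library of *Cask*, of animal 5, had 3 reads of *Gpr34*.

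*Selplg* (chr5:113817798-113832528, minus strand) encodes the P-selectin ligand PSGL-1, by which white blood cells roll on vessel walls. Its reads were 2, 0, 1, 1 and 1 in the Fezf2+ libraries and 80, 73, 68, 44 and 14 in the Fezf2- libraries. The lowest Fezf2- library was far above the highest Fezf2+ library (77.8 against 16.4 CPM), and the reads were spread over the 5 Fezf2- libraries, of which the highest held 28.2% of the total. The mean level on the log2(CPM + 1) scale was 2.72 ± 1.61 in Fezf2+ and 8.21 ± 1.13 in Fezf2- (SD, n = 5 each). The pooled ratio was 45.6 (19.3 to 141.6). The fitted log2 fold change was -5.19 ± 1.32, lower in 5 of 5 animals, with the fifth smallest p of all genes tested (edgeR with the block, unadjusted p = 0.000775, adjusted p = 0.993). DESeq2 with the block gave an adjusted p of 0.00252, and over all 14 alternatives the adjusted p ran from 0.00252 to 1. *Selp*, the gene of P-selectin, had 4 reads in all, and *Sele* had none.

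*Tmem119* (chr5:113793729-113800396, minus strand), a transmembrane protein used to tell microglia from other macrophages, is the next protein-coding gene to *Selplg*, 17401 bases away on the same strand. Its reads were 1, 0, 0, 0 and 2 in the Fezf2+ libraries and 39, 7, 53, 17 and 7 in the Fezf2- libraries. Thus 3 of the Fezf2+ libraries had none, and every Fezf2- library had at least 7. The pooled ratio was 33.5 (11.2 to 164.7), with 3 reads in Fezf2+, 19.7 (6.49 to 98.1) without animal 3 and 90.2 (15.9 to 3593) without animal 5. The fitted log2 fold change was -4.78 ± 1.53, lower in 5 of 5 animals (edgeR with the block, unadjusted p = 0.00543, adjusted p = 0.998), and DESeq2 with the block gave an adjusted p of 0.0351 (range over the 14 alternatives 0.0351 to 1).

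*Ptprc* (chr1:138062859-138175756, minus strand) encodes CD45, the tyrosine phosphatase of nucleated blood cells, which microglia carry at a low level. Its reads were 3, 1, 0, 0 and 2 in the Fezf2+ libraries and 15, 4, 6, 1390 and 1 in the Fezf2- libraries. A single library, Fezf2- of animal 4, held 97.7% of all its reads, and the types overlapped, with the lower value in Fezf2+ in 4 of 5 animals. The pooled ratio of 192.9 (88.4 to 526.6) came down to 3.69 (1.48 to 10.9) without animal 4, and was 394.8 (134.8 to 1917) without animal 1. With the block its log2 fold change was -2.87 ± 1.77 (edgeR, n = 5 animals, adjusted p = 0.998), -1.71 without animal 4, and -7.82 without the block, where it was called (adjusted p = 0.0931, range over the 14 alternatives 0.0763 to 1).

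**Figure D2:**
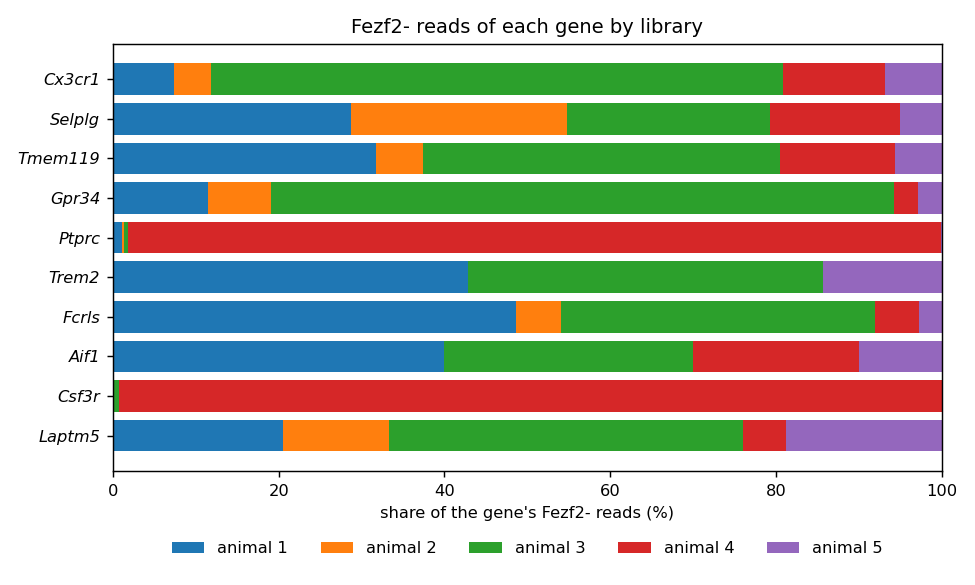
Share of each gene's Fezf2- reads, in percent, that came from each of the 5 Fezf2- libraries, 1 colour per animal. Animal 4 gives 98.2% for *Ptprc* and 99.3% for *Csf3r*, animal 3 gives 69.0% for *Cx3cr1*, and *Selplg* is spread more evenly, with at most 28.7% from a library.

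Among the immune receptors *Csf3r* (chr4:126023441-126044975, plus strand), the receptor for granulocyte colony-stimulating factor, went with *Ptprc*. Its reads were 2, 0, 0, 0 and 6 in the Fezf2+ libraries and 0, 1, 9, 1454 and 0 in the Fezf2- libraries. The Fezf2- library of animal 4 held 98.8% of the reads, while 2 of the other Fezf2- libraries had none. Without animal 4 the pooled ratio was 1.06 (0.378 to 3.10) in place of 149.6 (75.7 to 347.2), and without animal 5 it was 569.2 (157.3 to 4705). In the fit its log2 fold change was -1.68 ± 2.89 (edgeR with the block, n = 5 animals, adjusted p = 0.998), and its sign turned to 0.37 without animal 4. It was -3.20 by DESeq2 with the block (adjusted p = 0.466) and -7.59 by edgeR without the block (adjusted p = 0.103), and over the 14 alternatives the adjusted p ran from 0.0763, a call by the legacy method without the block, to 1. The gene of its ligand, *Csf3*, had no reads. Of 14 monocyte and neutrophil markers 11 were at 0 in every library, among them *S100a8*, *S100a9*, *Ly6g* and *Camp*, and in the library that held the reads of *Csf3r* the whole list had 1 read (7.74 CPM). Over the libraries that sum ran from 0 to 47.1 CPM (median 0) in Fezf2+ and from 0 to 33.3 CPM (median 0) in Fezf2-, with *Cxcr2*, *Ltf* and *Plac8* having the most reads.

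*Fcrls* (chr3:87250736-87263765, minus strand), a receptor of the Fc receptor-like family found on mouse microglia, had 0, 2, 0, 1 and 0 reads in the Fezf2+ libraries and 18, 2, 14, 2 and 1 in the Fezf2- libraries. It was lower in Fezf2+ in 5 of 5 animals, but the libraries of the types overlapped. In animals 2, 4 and 5 neither library had more than 2 reads, and in animal 2 both had 2. The pooled ratio was 10.1 (3.19 to 51.1), and 5.35 (1.58 to 28.2) without animal 1, 6.49 (1.96 to 33.8) without animal 3 and 27.0 (4.54 to 1097) without animal 2. *Trem2* (chr17:48346401-48352276, plus strand), a lipid-sensing receptor that signals through the adaptor Tyrobp, had no reads in Fezf2+ and 3, 0, 3, 0 and 1 in Fezf2-. With the Fezf2+ libraries set at a bound of 3 reads, the pooled ratio was 1.91. The exact counting interval of the ratio starts lower, at 1.18, and at 0.558 without animal 1, so a ratio below 1.91 is not excluded. In 2 animals neither library had a read. *Tyrobp* itself had 1 read in the Fezf2+ libraries, in animal 1, and 27, 47, 51, 73 and 19 in the Fezf2- libraries, with a log2 fold change of -6.85 ± 1.65 (edgeR with the block, n = 5 animals, adjusted p = 0.993, and DESeq2 with the block, adjusted p = 0.00107). The other partner gene of *Trem2* in the list, *Hcst*, had no reads. The difference for *Fcrls* and *Trem2* in the fit with the block was -2.72 ± 1.66 and -3.14 ± 2.31 on the log2 scale (edgeR, n = 5 animals, adjusted p = 0.998 for both).

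The remaining members act inside the cell. *Laptm5* (chr4:130912890-130936148, plus strand) encodes a lysosomal membrane protein of blood-derived cells. Its reads were 1, 1, 1, 0 and 0 in the Fezf2+ libraries and 24, 15, 50, 6 and 22 in the Fezf2- libraries. As for *Selplg* and *Tmem119*, each Fezf2- library was above each Fezf2+ library, and the highest held 41.7% of the reads. The pooled ratio was 31.9 (10.6 to 156.8), with 3 reads in Fezf2+. The fitted log2 fold change was -4.79 ± 1.29, lower in 5 of 5 animals (edgeR with the block, unadjusted p = 0.00141, adjusted p = 0.998), and DESeq2 with the block gave an adjusted p of 0.0268 (range over the 14 alternatives 0.0268 to 1). *Aif1* (chr17:35170986-35176083, minus strand) encodes Iba1, the actin-binding protein by which microglia are usually stained. It had 1 read in the Fezf2+ libraries, in animal 1, and 4, 0, 3, 2 and 1 reads in the Fezf2- libraries. The pooled ratio of 8.17 had a counting interval of 1.16 to 354.8, so the size of its difference was not measurable at this depth.

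**Figure D3:**
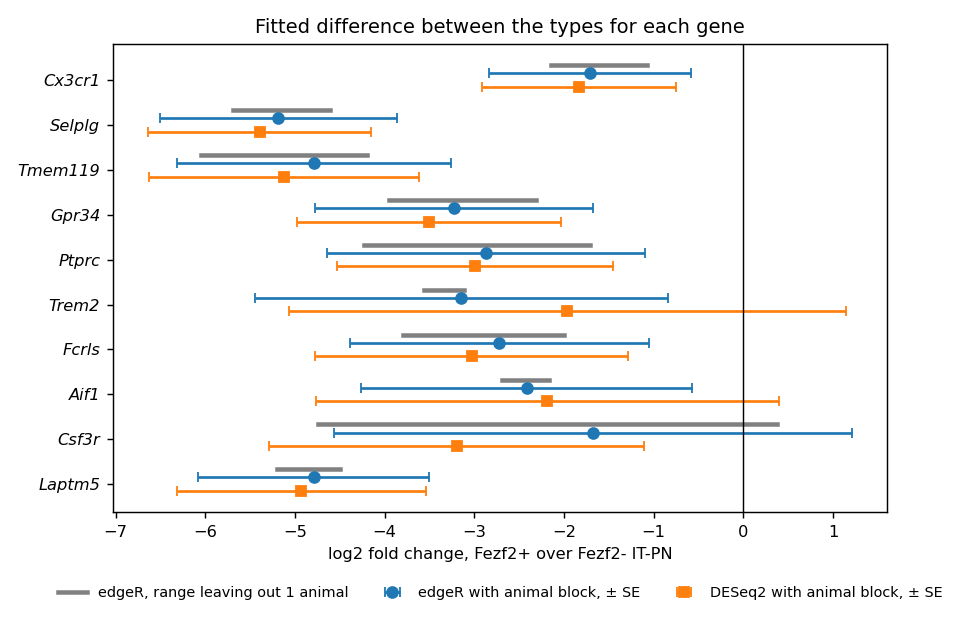
Fitted log2 fold change of Fezf2+ over Fezf2- for each gene, with its standard error, from edgeR and from DESeq2, both with the animal as a block, and as a grey bar the range of the edgeR value when each animal is left out (for *Trem2* and *Aif1* over the 3 fits in which the gene passed the filter). *Laptm5* keeps a narrow range of -5.20 to -4.49, and the range of *Csf3r* runs from -4.74 to 0.37.

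Other genes of microglia gave a wider view. Of 41 genes chosen besides the 10, 37 were tested. By edgeR with the block 0 were called in either direction, and 16 had an unadjusted p under 0.05 with a lower level in Fezf2+ and 0 with a higher one. DESeq2 with the block called 12 lower and 0 higher, edgeR without the block 14 lower and 0 higher, and 11 genes did not overlap between the types. DESeq2 gave an adjusted p for 19 of the 37. The shares of all genes for these counts are those given above for the 10 genes, and the same reserve on the filter holds. The median log2 fold change of the 37 genes was -3.63, or -3.06 with the 7 genes that had no read in Fezf2+ set at their bound. For the 10 genes it was -3.01, or -2.80 with *Trem2* at its bound, and for all genes tested -0.16. The summed level of the 41 genes was 910.1, 516.7, 1306, 294.2 and 392.1 CPM in the Fezf2+ libraries and 8911, 11358, 10121, 19172 and 64798 CPM in the Fezf2- libraries, with no gene at 0 in all libraries.

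The genes of this list that DESeq2 called, under the limit on its adjusted p-values given above, include those of well-known microglial functions. *Csf1r*, the receptor on which microglia depend for survival, had 0, 2, 0, 0 and 3 reads in the Fezf2+ and 51, 45, 119, 28 and 534 in the Fezf2- libraries (DESeq2 with the block, adjusted p = 8.78e-05). *P2ry12*, the ADP receptor that guides microglial processes, had 3, 1, 0, 0 and 0 against 388, 23, 76, 20 and 11 reads (DESeq2 with the block, adjusted p = 0.00107). *Ctss*, a lysosomal protease, had 5, 4, 0, 0 and 1 against 372, 91, 196, 92 and 56 reads (DESeq2 with the block, adjusted p = 8.78e-05). For each of these genes the Fezf2- libraries were all above the Fezf2+ libraries of the same animals. Among the others called were *P2ry13*, *Tyrobp*, *Itgam*, *Slc2a5*, *Plek* and the complement genes *C1qa*, *C1qb* and *C1qc*. *P2ry12* and *P2ry13* lie inside *Med12l*, which the paper lists among the genes increased in Fezf2-. As for *Gpr34* inside *Cask*, their reads cannot be told apart from those of the host gene. The genes with the most reads were *Mertk*, *Entpd1* and *Plek*. Reads of the first 2 of these came mostly from 1 or 2 libraries. *Mertk*, a receptor for the uptake of dying cells, had 2008 and 5764 reads in the Fezf2- libraries of animals 4 and 5 and at most 10 in any other, and *Entpd1*, an enzyme that breaks down extracellular nucleotides, had 4463 in that of animal 5 and at most 18 in any other.

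Of 17 genes of activated microglia 5 were tested, and 0 were called by edgeR with the block or by DESeq2 with the block, with 0 at an unadjusted p under 0.05. *Cst7*, *Il1b*, *H2-Aa*, *H2-Ab1* and *Lgals3* had no reads in any library. Their summed level was 647.5 to 4067 CPM in Fezf2+ and 111.1 to 2260 CPM in Fezf2-, most of it *Apoe*, a lipid carrier that astrocytes also make, followed by *Axl* and *Cd9*. *Apoe* had 482, 94, 113, 56 and 134 reads in the Fezf2+ and 321, 25, 54, 263 and 13 in the Fezf2- libraries. Its log2 fold change was 1.31 ± 1.21 (edgeR with the block, n = 5 animals, adjusted p = 0.998), whereas the other 4 genes tested had values below 0, and the median of the 5 was -0.67. Of 9 genes of ligands and partners 5 were tested, with *Apoe*, *Tyrobp* and *Clu* having the most reads, and DESeq2 with the block called *Tyrobp* alone.

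Markers of red blood cells were also lower in the Fezf2+ libraries. The sum over 5 markers was 844.5, 71.9, 13.8, 0 and 0 CPM in the Fezf2+ libraries and 3847, 2534, 223.6, 472.1 and 11.1 CPM in the Fezf2- libraries, so that the Fezf2- library was higher in each of the 5 animals. *Hbb-bs*, a haemoglobin gene, had the most reads (410), followed by *Hbb-bt* and *Hba-a1*, and *Alas2* had 2 reads. The near-identical copies *Hba-a1* and *Hba-a2* had the same count in every library, so their reads cannot be assigned to a copy. All 4 genes tested had an unadjusted p under 0.05 by edgeR with the block (adjusted p = 0.998 for each), with a median log2 fold change of -4.01, and DESeq2 with the block called *Hba-a1* and *Hba-a2*, which hold the same counts and are 1 measurement, and not *Hbb-bs* and *Hbb-bt* (adjusted p = 0.0694 and 0.123 for the pairs). The part of blood cells in the levels of the 10 genes was not tested.

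Markers of other immune cells were few. Of 8 perivascular macrophage markers *Cd163*, *Lyve1* and *Cbr2* were at 0 in all libraries. *Stab1* led the list, with 137 of its 152 reads in the Fezf2- library of animal 3, followed by *F13a1* and *Mrc1*, and the sum was 6.91 to 47.1 CPM (median 24.5) in Fezf2+ and 5.55 to 685.5 CPM (median 54.2) in Fezf2-. Of 11 lymphocyte markers 10 had no reads, among them *Cd3e* and *Cd3d*, and *Cd4* had 3 reads in the Fezf2- library of animal 1.

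The summed levels of markers of other brain cells overlapped between the types. For astrocytes (*Slc1a2*, *Slc1a3*, *Aldoc*, with *Gfap* at 0), the summed level was 573.6 to 5409 CPM (median 754.3) in Fezf2+ and 49.99 to 6223 CPM (median 189.6) in Fezf2-. For oligodendrocytes (among them *Mbp* and *Cnp*) it was 188.3 to 7541 CPM (median 511.4) and 185.8 to 1744 CPM (median 340.3). For oligodendrocyte precursors (*Pdgfra*, *Cspg4*, *Olig1*) it was 153.0 to 2269 CPM (median 882.3) and 216.7 to 1350 CPM (median 787.5). Their median log2 fold changes were 1.70, 0.40 and 0.87. Endothelial and mural markers (*Flt1*, *Tek*, *Pecam1*, with *Kcnj8* and *Acta2* at 0) summed to 8.20 to 78.5 CPM and 19.4 to 85.1 CPM, with a median log2 fold change of 0.20. Inhibitory neuron markers (*Gad2*, *Gad1*, *Sst*) summed to at most 6.13 CPM in Fezf2+ and 34.5 CPM in Fezf2-, with 5 of 8 at 0. Of the genes tested in these lists and in the excitatory list, 0 were called by edgeR with the block or by DESeq2 with the block. An unadjusted p under 0.05 by edgeR was found for 0 of them. This does not show that they did not differ, since edgeR with the block called no gene of the whole table. No inhibitory neuron marker entered the test, and of the 11 endothelial and mural markers 4 did. The median of the excitatory markers was 1.05.

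**Figure D4:**
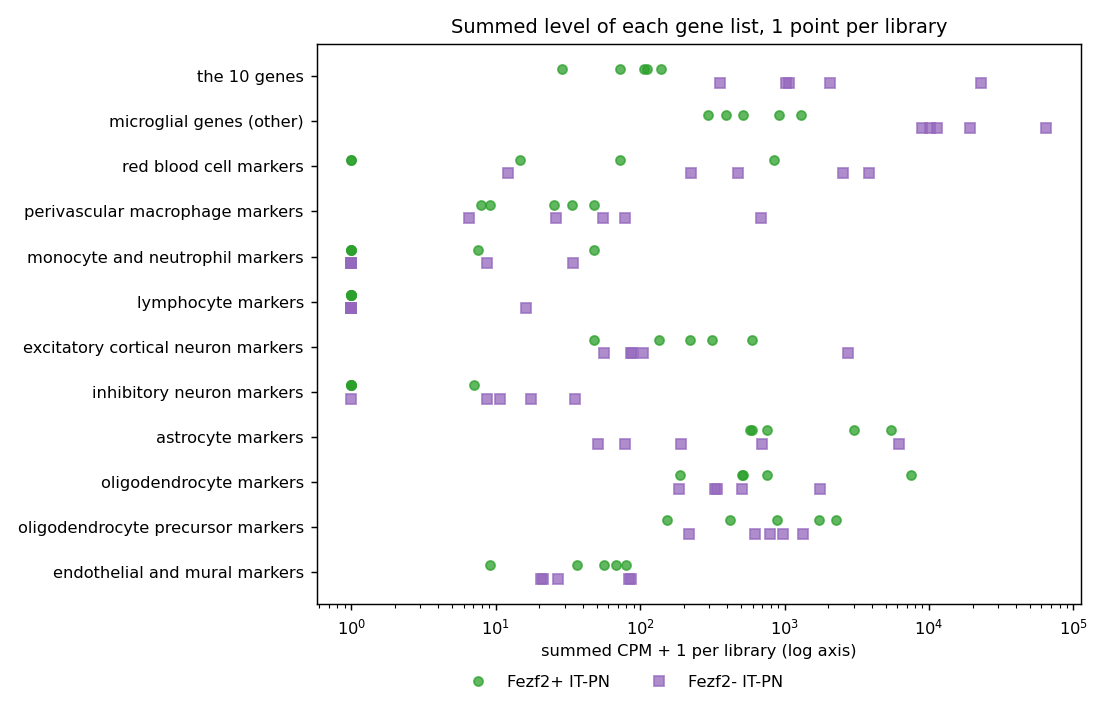
Summed CPM (plus 1, log axis) of the 10 genes, of the other microglial genes and of the markers of other cells, 1 point per library, Fezf2+ as circles and Fezf2- as squares. The types are apart for the 10 genes and the other microglial genes, whose lowest Fezf2- library stands at 8911 CPM, and they overlap in every other list.

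Among the 8 genes whose levels ran most like the mean of the 10 genes over the 10 libraries were *Ppcdc* (Pearson r of log2(CPM + 1) = 0.949), *E230029C05Rik* (0.935), *Tyrobp* (0.931), *Cd53* (0.925), *Itgam* (0.925), *P2ry13* (0.921) and *Prex1* (0.918). These r describe libraries that share depth and type, and many rest on few reads. *Ppcdc* had 0 reads in Fezf2+ and 11 in Fezf2-. Of the 8 genes, 4 belong to the list of other microglial genes (*Tyrobp*, *Cd53*, *Itgam* and *P2ry13*), which made up 37 of the 7409 genes tested.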

How the data were processed

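The authors aligned the trimmed reads, demultiplexed after bcl2fastq 1.8.4, to mm10 (TopHat2 2.1.1) and counted them per RefFlat gene (bedtools 2.26.0), and the deposited tables hold these read counts without normalization. The strand setting is not given in the sources used here. A deposited table of the authors' own fold changes and p-values (DESeq2 1.10.1, R 3.2.5) was not used. The 10 genes and all lists were chosen with earlier results of these data known. Named from each list are the 3 genes with the most reads, and from the wider microglial list also those that DESeq2 called. The results of some genes that this rule takes are not reported here.

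Counts were scaled by TMM and tested with edgeR 4.0.16 in R 4.3.3, with the quasi-likelihood method of that version (legacy = FALSE), a block for the animal and p-values adjusted by Benjamini-Hochberg. The package default of this version is the legacy method, which a first run used. The main fit was then changed to legacy = FALSE. The legacy method was kept, with and without the block, as an alternative, so this choice was made after seeing the data. DESeq2 1.42.0 was used without a prior. The pairing comes from the sample records, by which both fractions of a number came from the same animal. Deviations of same-numbered libraries from their type means correlated at 0.097, -0.0073, 0.061, 0.021 and -0.027. Standard errors of edgeR were calculated from the F statistic. Pooled ratios have exact Clopper-Pearson intervals (95%), and levels use a pseudocount of 1. Positions are those of RefSeq on GRCm38.p6, the build of mm10, with strands from GENCODE. Python 3.11.15 with numpy 2.4.6, pandas 2.3.3, scipy 1.17.1 and matplotlib 3.10.9 was used for the remaining steps.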

Additional observations from a re-analysis of the deposited data

Results flagged for a closer look

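In 6 of 21 groups of 5 libraries, the gap of a library to its nearest neighbour, as a ratio to the CPM range, exceeded 0.71. Chance gives such a ratio about 1 in 20 times for normally distributed values. Read counts this low and skewed are not such values, so the 6 cannot be set against that rate. The ratio was 0.996 for *Csf3r* and 0.993 for *Ptprc* in Fezf2-, both in the library of animal 4, with 1454 and 1390 reads, and 0.924 for the sum of the 10 genes in the same library. It was 0.806 for *Cx3cr1* and 0.858 for *Gpr34* in Fezf2-, both in the library of animal 3, with 140 and 79 reads. For *Aif1* in Fezf2+ it was 1, since the library of animal 1 had 1 read and the others none. These groups share libraries and are not independent.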

How the results depend on the processing

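By edgeR with the block 0 of the 10 genes were called under other scalings, filters, downsampling, the 0.05 threshold, the legacy method and without each animal in turn (0 to 0), but the count was 4 with no replicate block, 3 by DESeq2 with the replicate block and 5 by the legacy method with no replicate block (all genes called 279, 98 and 638). Each of these edgeR fits with the block called 0 of all genes, so the 0 says nothing about stability. The count at an unadjusted p under 0.05, the ERCC scaling and the sum without *Csf3r* and *Ptprc* were chosen after seeing the data. So was legacy = FALSE for the main fit, with the legacy fits as alternatives. Removing the block changed the calls by edgeR, DESeq2 differed from edgeR with the same block, and the cause was not tested. The count at an unadjusted p under 0.05 was 3, with 8 for no replicate block, 8 for the legacy method with no replicate block, 5 after downsampling and 3 to 4 without each animal. The log2 fold changes of the 10 genes were below 0 in 131 of 132 alternative values. The exception was *Csf3r*, at -4.74 to 0.37 without each animal and above 0 without animal 4, whose Fezf2- library held nearly all its reads. Genes without overlap were 5, with 4 by the other scalings, 1 after downsampling to 89138 reads, where the highest Fezf2+ and the lowest Fezf2- library of *Cx3cr1*, *Tmem119*, *Gpr34* and *Laptm5* tied at 5, 2, 1 and 1 reads, and 5 to 7 without each animal. The mean log2 ratio of the summed level was -4.49 ± 2.47 (SD, n = 5 animals), from -5.18 to -3.67 without each animal, -4.85 per ERCC read and -3.76 without *Csf3r* and *Ptprc*. *Trem2*, *Fcrls* and *Aif1* did not pass every filter and have fewer values. At this depth genes with as few reads as *Trem2* and *Aif1* give no usable size of difference.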
